A study of Etheostoma caeruleum with 31 samples.

Results

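Gene expression in the testis of the rainbow darter (Etheostoma caeruleum, a freshwater fish of North America) was compared between recrudescence and the post-spawning stage that precedes it in the year. The comparison, of adult males only, takes 11 of the 31 arrays of the series, chosen by their sample titles alone. They are the 5 arrays of recrudescence, from wild fish collected in October 2011, and the 6 arrays of the post-spawning stage, from wild fish collected in August 2011. All of the fish were males described as reproductively mature, with no treatment given in the labels, caught by electrofishing in an area of the Grand River, Ontario, that the labels call clean, and no strain or age beyond adult is given. The labels describe the arrays of a stage as biological replicates, and each array holds labelled total RNA from testis. An array is taken here as 1 fish, although the labels do not say whether RNA was pooled. Each stage comes from 1 month, so that stage, season and water temperature cannot be told apart.

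In fish that breed once a year, the testis shrinks after spawning, and the Sertoli cells that line the spermatogenic compartments remove leftover sperm. Recrudescence is the regrowth that follows, in which spermatogonia multiply under the control of pituitary gonadotropins and testicular androgens and germ cells enter meiosis, so that the cell make-up of the organ changes as well as the activity of its cells. In RNA from the bulk tissue, a change in the number of cells of a type and a change in RNA per cell cannot be told apart. The files used here name array probes and pair none with a gene, so the results describe probes and groups of probes, and the labelled tissue was not checked against marker genes.

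The 75th percentile of the spot intensity, to which every value is scaled, lay between 3100 and 4473 on the recrudescence arrays and between 2961 and 4657 on the post-spawning arrays. The share of probes well above background ran from 85.8% to 90.6% over the recrudescence arrays and from 87.0% to 95.8% over the post-spawning arrays. The lowest correlation between 2 arrays of the same stage across probes was 0.963, and the highest between arrays of different stages was 0.893. In a principal component analysis the stages separated on the leading component (80.8% of the variance), with scores of -83.7 to -67.9 for recrudescence and of 44.6 or more for post-spawning (the sign of a component is arbitrary). Post-spawning replicate 2 had the lowest score of its stage, and the next post-spawning array stood at 65.0. The second component held 3.74% of the variance and spread the post-spawning arrays (-28.3 to 20.8) more widely than the recrudescence arrays (-11.6 to 7.87).

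**Figure D1:**
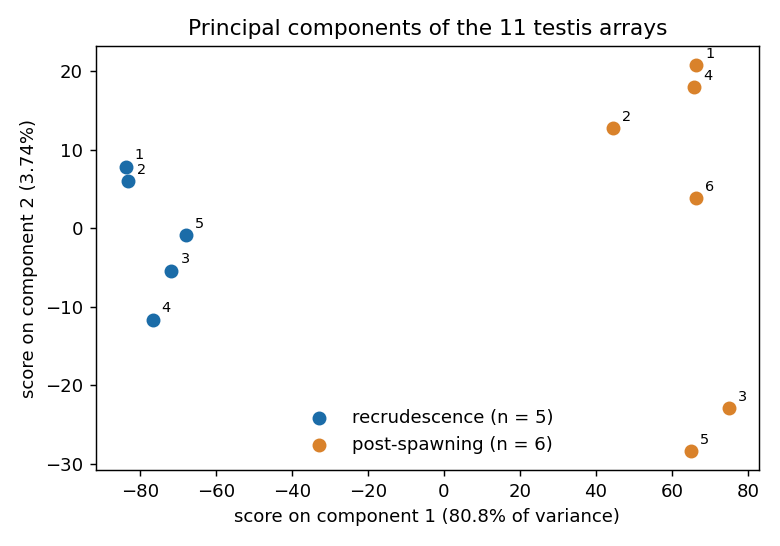
Scores of the 11 arrays on the first component (horizontal axis) and the second component (vertical axis) over 8266 probes, each point being 1 array with its replicate number. The recrudescence arrays lie on the left and the post-spawning arrays on the right, with post-spawning replicate 2 nearest to recrudescence.

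Of 8279 probes tested between the stages, 1982 (23.9%) rose in recrudescence and 4071 (49.2%) fell, together 6053 (73.1%), by limma's moderated test with a threshold of 0.05 on the Benjamini-Hochberg adjusted p. A rising probe changed by a median of 2.35-fold and a falling one by a median of 2.04-fold. Without regard to the test, the signals of the stages did not overlap for 1559 probes that were higher in recrudescence (18.8% of those tested) and for 3153 that were lower (38.1%). The median of all tested probes was 0.36 lower in recrudescence on the log2 scale. That shift depends on the scaling, since it was -0.22 with arrays centred on their median and -0.25 with scaling to spike-in RNA, so small changes have no fixed zero. With arrays centred on the median 2252 probes rose and 3547 fell. With scaling to spike-in RNA 1579 rose and 2384 fell, together 3963 probes or 47.9% of those tested.

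Falls were more numerous, whereas the largest changes were rises. At least 8-fold rises were found for 330 probes (3.99% of those tested) and at least 8-fold falls for 180 (2.17%). At least 16-fold changes comprised 187 rises and 22 falls, and at least 32-fold changes 89 rises and 1 fall. All 46 probes that changed at least 64-fold had risen. The same order held among the 7355 probes that were well above background on every array of both stages. They gave 253 rises and 91 falls of at least 8-fold and 29 rises and 0 falls of at least 64-fold. It did not hold in every group of probes, and groups by probe name are given further below. The 2070 probes dimmest over all arrays had 73 rises and 100 falls of at least 8-fold. The 2070 brightest had 82 rises and 1 fall. The groups between them, from dim to bright, had 79 rises and 57 falls, and 96 rises and 22 falls. With a normexp background correction, which was run on median pixel intensities with an offset of 50, 250 rises and 35 falls were at least 8-fold. The same correction without the offset, chosen after seeing the data, gave 292 rises and 88 falls.

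**Figure D2:**
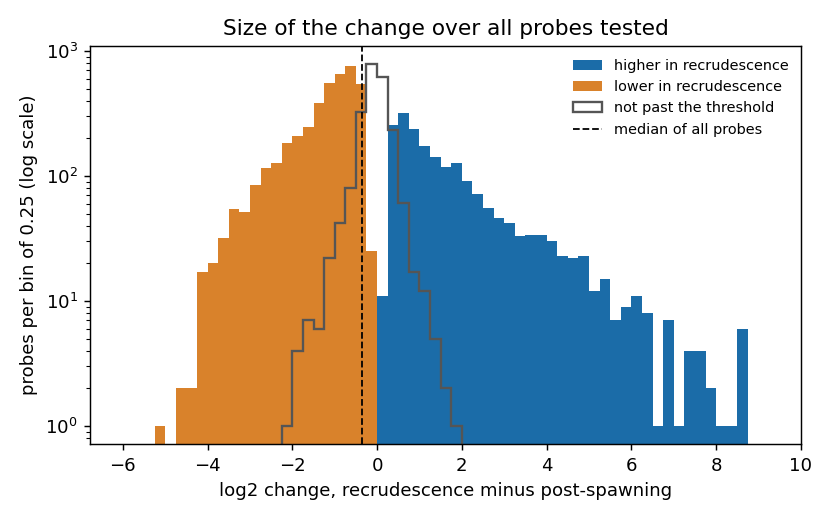
Distribution of the log2 change (recrudescence minus post-spawning, horizontal axis) over the 8279 probes tested, in bins of 0.25 with the number of probes on a log axis. Filled bars are probes past the threshold, the grey outline is the probes that did not pass, and the dashed line is the median of all probes (-0.36); the right tail is longer than the left.

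As a group, the probes with large rises were high in every recrudescence fish and low in every post-spawning fish. On the log2 scale, relative to each array's 75th percentile, their median signal was 1.06, 0.99, 0.73, 0.75 and 0.34 in recrudescence replicates 1 to 5. It was -3.73, -3.10, -3.78, -3.69, -3.94 and -3.78 in post-spawning replicates 1 to 6. These values describe the 330 probes and test nothing, since the same arrays chose the probes. All 330 were well above background on every recrudescence array, 253 were so on every post-spawning array and 15 on no post-spawning array. Their median SD between fish was 0.33 in recrudescence and 0.40 in post-spawning testis, against 0.26 and 0.25 over all tested probes. For 325 of the 330 the stages did not overlap, against 4712 of all 8279 probes tested. Choosing called probes with large changes favours such separation, so this count tests nothing either.

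Part of the probes with large falls were no longer above background in recrudescence. Over the 180 probes the median log2 signal was -6.08, -6.05, -5.96, -6.43 and -6.32 in recrudescence replicates 1 to 5. It was -2.60, -3.33, -2.46, -2.40, -2.97 and -2.58 in post-spawning replicates 1 to 6. Of the 180, 91 were well above background on every recrudescence array and 27 on none, while 176 were well above background on every post-spawning array. A probe near background in recrudescence has a less certain fold. The median SD of the 180 probes was of similar size in both stages, at 0.47 in recrudescence and 0.48 in post-spawning testis. Over all tested probes it was 0.26 and 0.25.

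**Figure D3:**
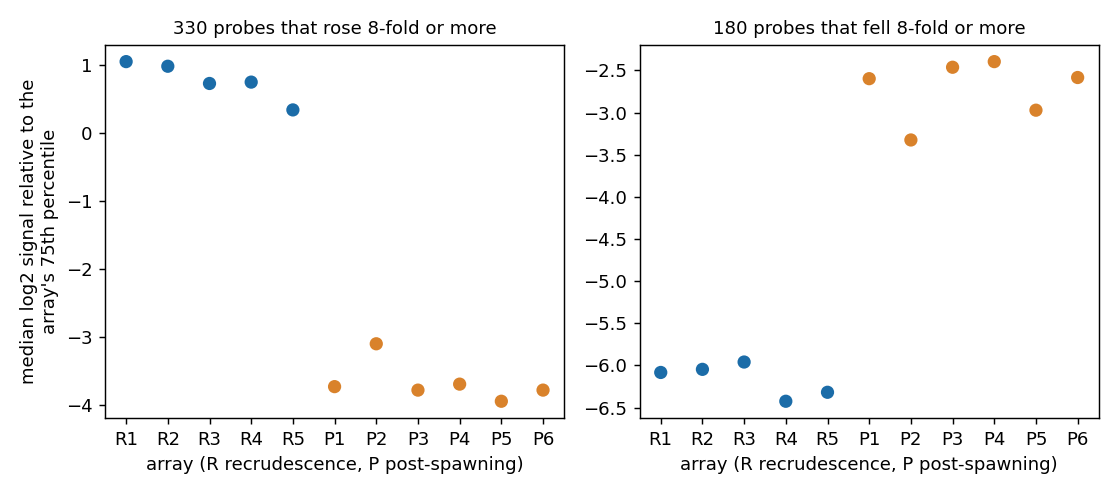
Median signal, as log2 of the ratio to an array's 75th percentile (vertical axis, different ranges in the panels) in each array (horizontal axis) for the 330 probes that rose and the 180 that fell at least 8-fold, 1 point per array. The recrudescence arrays lie above all post-spawning arrays in the left panel and below them in the right panel, as the choice of probes fixes.

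Detection, as judged by the calls of well above background, changed between the stages for a smaller set. Such calls do not show whether a transcript was present or absent. In recrudescence 21 of the 8279 probes tested were well above background on every array while they were so on no post-spawning array. Against the lowest measurable signal they were at least 3.85-fold to at least 353-fold higher, with a median bound of at least 11.2-fold. Another 41 of the 8279 were well above background on no recrudescence array and on every post-spawning array. They were at least 2.62-fold to at least 33.4-fold lower in recrudescence, with a median bound of at least 7.93-fold. With every spot of a probe required to exceed background, the numbers were 27 and 44. That rule applies to both stages, so it is stricter for the brighter stage and looser for the dimmer stage.

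The named probes are the largest rises and the largest falls among probes past the threshold that were well above background on every array and kept their direction without any single array. Probe GT_EA516_an_as_xh_1291 gave the largest rise. Its log2 signal was 5.68, 5.54, 5.04, 5.35 and 4.95 in recrudescence replicates 1 to 5, against -5.70, -1.02, -3.18, -1.41, -3.29 and -5.93 in post-spawning replicates 1 to 6. Every recrudescence fish was high and alike on this probe, whereas the post-spawning fish ranged widely, with replicates 1 and 6 lowest and replicates 2 and 4 highest. The means were 5.31 ± 0.31 (SD, n = 5) in recrudescence and -3.42 ± 2.07 (n = 6) in post-spawning testis. The log2 change was 8.74 ± 0.84 (SE, limma adjusted p 1.96e-06). On the slides that hold both stages the change was 11.2 on slide 1, 11.2 on slide 2 and 6.22 on slide 3. Each of these values rests on 1 post-spawning array. Slides 1 and 2 held replicates 6 and 1, the lowest of the stage, and slide 3 held replicate 2, the highest.

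Probe GT_EA516_un_as_sp_15814 rose by nearly as much but with the opposite spread. It stood at 4.59, 0.48, 4.10, 4.73 and -0.38 in recrudescence replicates 1 to 5, against -6.41, -4.71, -6.36, -6.10, -6.42 and -6.03 in post-spawning replicates 1 to 6. The recrudescence fish fell at a high level (replicates 1, 3 and 4) and a lower one (replicates 2 and 5), and both lay above every post-spawning fish. The means were 2.70 ± 2.45 (SD, n = 5) in recrudescence and -6.01 ± 0.65 (n = 6) in post-spawning testis, and the log2 change was 8.71 ± 0.92 (SE, limma adjusted p 4.34e-06). The order of these 2 probes is not settled, since their changes differ by less than either SE.

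The 2 named falls were smaller than the 2 named rises. Probe GT_EA516_un_as_sp_15888 stood at -4.34, -4.17, -4.16, -3.95 and -3.87 in recrudescence replicates 1 to 5, against -0.03, -0.11, 0.31, 0.27, 0.40 and -0.03 in post-spawning replicates 1 to 6. The stages were far apart relative to their spread, with means of -4.10 ± 0.19 (SD, n = 5) in recrudescence and 0.13 ± 0.22 (n = 6) in post-spawning testis. The log2 change was -4.23 ± 0.13 (SE, limma adjusted p 1.06e-09). Probe GT_EA516_an_s_xh_2253 stood at -5.43, -4.93, -5.15, -5.50 and -5.81 in recrudescence replicates 1 to 5, against -0.97, -1.75, -0.30, -1.16, -1.81 and -1.26 in post-spawning replicates 1 to 6. No recrudescence fish approached the post-spawning range, and the log2 change was -4.16 ± 0.26 (SE, limma adjusted p 6.38e-08). Relative to the median of all probes, the log2 changes of the 4 probes in the order given were 9.10, 9.07, -3.87 and -3.79. Each of these falls rests on 1 spot per array, and each of the rises on 2 spots.

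**Figure D4:**
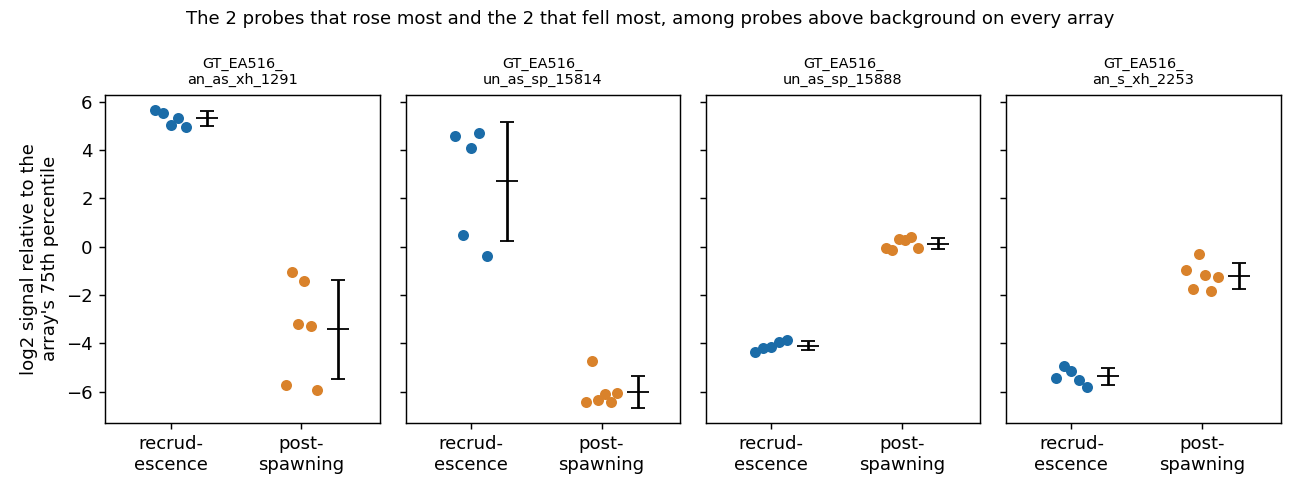
Signal, as log2 of the ratio to an array's 75th percentile (vertical axis), of the 4 named probes, with recrudescence on the left and post-spawning on the right of each panel. Points are single arrays and bars show the mean ± SD; no stage ranges overlap, and the spread is widest for post-spawning fish on GT_EA516_an_as_xh_1291 and for recrudescence fish on GT_EA516_un_as_sp_15814.

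Each array was also set against calls made without it. Of the 5815 to 5969 probes called without a given array, that array lay on its own stage's side of the other stage's mean for 97.8% to 99.2%. On the same probes an array's position was expressed as a percentage of the difference between the means of the stages, where 100 is the mean of the other arrays of its stage. The medians ran from 88.6% (replicate 5) to 108% (replicate 1) among recrudescence fish and from 86.6% (replicate 2) to 106% (replicate 3) among post-spawning fish. Post-spawning replicate 2 was nearer to recrudescence both on the probes that had risen at least 8-fold (86.7%) and on those that had fallen at least 8-fold (78.8%). The other post-spawning fish reached 100% to 105% on the first of these groups and 93.3% to 113% on the second. Without post-spawning replicate 2, 1969 probes rose and 3981 fell, and at least 8-fold changes comprised 338 rises and 212 falls.

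**Figure D5:**
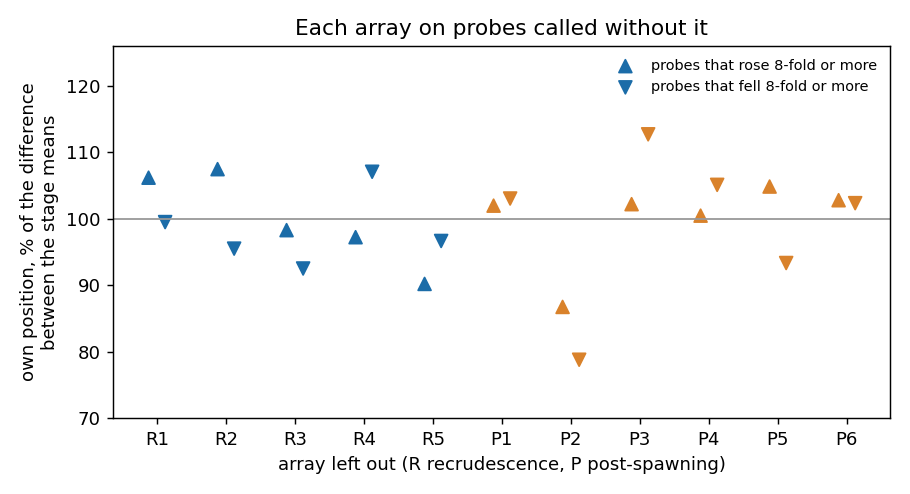
Median position of each array (horizontal axis) on probes called without it, as a percentage of the difference between the stage means (vertical axis, which does not start at 0). Upward triangles are probes that rose and downward triangles probes that fell at least 8-fold; post-spawning replicate 2 is the lowest on both.

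The spread between fish was of similar size in both stages. The median SD of a probe was 0.26 among recrudescence fish and 0.25 among post-spawning fish, and the SD was larger in recrudescence for 4326 probes and in post-spawning testis for 3953. The spread between duplicate spots of a probe on 1 array was smaller, with a median SD of 0.054 over 5805 probes, against 0.24 among recrudescence fish and 0.22 among post-spawning fish for the same probes. An SD above 1 was found for 246 probes in recrudescence and for 265 in post-spawning testis, of which 87 were shared (35.4% and 32.8% of these lists). The threshold between the stages was passed by 121 of the 246 (49.2%) and by 115 of the 265 (43.4%), against 73.1% of all tested probes. A large SD within a stage itself makes the threshold harder to pass, so the choice of these probes favours lower shares.

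Missing the threshold does not by itself show that a probe was steady. Among the 2226 such probes, the 95% confidence interval of the change lay within 2-fold in either direction for 1728 and within 1.5-fold for 1080. For the remaining 498 the interval reached 2-fold or more. These intervals hold for the main scaling, under which the median log2 change of all tested probes was -0.36.

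The signal was less concentrated in the brightest probes in recrudescence. The 100 brightest probes of an array held 33.8%, 31.0%, 31.1%, 32.0% and 32.1% of the summed signal in recrudescence replicates 1 to 5, against 38.7%, 37.6%, 36.3%, 36.9%, 34.9% and 35.8% in post-spawning replicates 1 to 6. Every recrudescence array was below every post-spawning array. The mean difference was -4.68 percentage points, with an exact permutation p of 0.00216, the smallest that these group sizes can give, and an adjusted p of 0.0108 over 5 measures of whole arrays. Ranked by the stage means, 78 of the 100 brightest probes were shared by the stages. The other 4 measures did not pass after adjustment. The lowest permutation p among them was 0.0433 (adjusted 0.108), for the correlation of an array with its own stage. This p is not exact, since arrays of a stage share correlations and these were not recomputed when arrays were reassigned. The correlation with the own stage averaged 0.980 ± 0.0023 (SD, n = 5) in recrudescence and 0.977 ± 0.0015 (n = 6) in post-spawning testis.

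The shares of rising and falling probes varied between kinds of probe. The probe names carry 3 paired fields (an and un, s and as, sp and xh), whose meaning the sources used here leave unexplained. Rises made up 25.7% of the 6028 probes with the field an and 19.3% of the 2234 with un, against 23.9% of all. At least 8-fold changes comprised 270 rises and 104 falls with an. With un the falls were more numerous, at 60 rises and 73 falls of at least 8-fold. These counts are of the main setting, and with the normexp correction only 35 probes of all kinds fell at least 8-fold. Among the probes whose names carry these fields, falls were most frequent where un and xh stood together. They made up 55.1% of the 321 probes with un, s and xh and 58.2% of the 177 with un, as and xh, against 49.2% of all. The median log2 change of these groups was -0.71 and -0.74, against -0.36 over all probes, and it was below that of all probes under each other scaling and background correction run. Of the 18 probes named as custom additions 17 were tested, with log2 changes from -3.99 to 2.08. Among them 3 rose (17.6%) and 11 fell (64.7%), against 23.9% and 49.2% of all. Their median log2 change was -1.22. At least 8-fold, 0 rose and 3 fell (17.6%), against 3.99% and 2.17% of all. Shares of so few probes are uncertain, and the difference from all probes was not tested. Rises were more frequent among the 2070 probes that were brightest over all arrays (27.2%) than among the 2070 dimmest (18.9%). Quantile normalisation turned this order around, with 506 rises among the brightest and 614 among the dimmest. The authors' deposited log2 table did so as well, with 505 and 607 rises.

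The arrangement of the arrays on the glass slides was uneven. Slides 1, 2 and 3 held 2, 1 and 2 recrudescence arrays beside 1 post-spawning array each, and slide 4 held 3 post-spawning arrays and no recrudescence array. On a slide, 4 of 5 recrudescence arrays and 1 of 6 post-spawning arrays lay in the first column. Of the probes called without slide 1, 2 or 3, between 97.5% and 97.9% changed in the same direction on that slide. With slide as a fixed block 5393 probes differed, and with the side of the slide as a block 5345 did, of which 1807 rose and 3538 fell.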

How the data were processed

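The deposited scanner files give spot intensity on a linear scale, background-subtracted within each array by the authors with Agilent Feature Extraction 10.7.1.1, per the file headers, and not normalised between arrays. Trizol extraction and 1-colour Cy3 labelling are stated per the labels. The fields well above background, saturated and outlier are other values of 0 or 1 per spot, per the file headers. The authors' deposited log2 table, for which the sources used here name no normalisation, kept the scanner ranks (Spearman rho of 1 on all 11 arrays; medians 9.70 to 9.71) and served as an alternative.

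Each array's 75th percentile was subtracted from its log2 intensities. After removal of 100 spots marked as outliers, a probe's spots were averaged; no spot was saturated. A probe had to be well above background in a share of 0.5 or more of its spots, on at least 5 arrays, which left 8279 of 9041 probes, 13 of them lacking a value on some array. The 2 stages alone were fitted with limma 3.58.1 in R 4.3.3, adjusted by Benjamini-Hochberg at 0.05, and tested on simulated data. The number of arrays limits the precision. The p-values weigh the difference between the stages against the spread between arrays of a stage, in which fish and array handling are not told apart. A bound compares the brighter stage's mean with, per array of the dim stage, the probe's own signal or the array's lowest signal well above background, whichever is higher.

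The comparison, the groups of probes and the rule for named probes were chosen with earlier results of these data known. The rule takes the 2 largest rises and the 2 largest falls among called probes that all 11 arrays measured above background and that kept their direction without any array. Lists of genes drawn up for the testis could not be applied. Alternatives were other background corrections (normexp used median pixel intensities, the files holding no mean signal), scalings, filters, spot averaging, blocks, weights and left-out arrays or slides.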

Additional observations from a re-analysis of the deposited data

Results flagged for a closer look

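An array was singled out where the gap to its nearest neighbour, as a share of its stage's range, exceeded Dixon's critical value at 95% (0.71 for 5 arrays, 0.625 for 6). Over 26 groups examined 4 stood out, and chance alone gives about 1 in 20. The groups share arrays and probes, so they are not independent.

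Post-spawning replicate 2 was the array concerned in all 4. Its mean correlation with the recrudescence arrays was 0.877, against 0.839 for the next post-spawning array (gap share 0.634). Its score on the first principal component was 44.6, against 65.0 for the next (gap share 0.671). The median log2 signal of the probes that rose at least 8-fold was -3.10 on it, against -3.69 on the next (gap share 0.702). Probe GT_EA516_un_as_sp_15814 stood at -4.71 on it, against -6.03 on the next (gap share 0.774).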

How the results depend on the processing

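No probe called in both changed direction between the main setting and any alternative fit, and the named probes kept their direction and their call in every refit that tested them. Scaling to spike-in RNA, which used 6 of 10 spike-in probes, left 3963 probes, of which 2384 fell, and 64.9% of the 6053 calls. The 75th percentile minus the spike-in signal (log2) had an SD of 0.39 in recrudescence and 0.44 in post-spawning testis. The cause of the loss of calls was not tested. The other fits held at least 86.4% of the calls they could test. At least 8-fold falls numbered 35 with normexp on median pixel intensities and 88 with normexp without its offset (chosen after seeing the data). They numbered 119 with quantile normalisation and 121 with the authors' log2 table, against 180 in the main setting. Higher counts were found with the side of the slide as a block (241) and without slide 3 (218). The cause of these differences was not tested. When every array had to measure the probe above background, 91 remained, the number that such probes gave in the main setting. Rises made up 32.7% of the calls in the main setting and at most 39.8% in any other. Leaving out single arrays gave 5815 to 5969 calls. Without single arrays the difference in the 75th percentile (49.9 in the main setting) ran from -118 to 237. The difference in the correlation with the own stage ran from 0.00236 to 0.00386. Its permutation p, which is not exact, was above 0.05 in 8 of 11 cases. The replicate block by title number gave 5724 calls, against 5876 on the same 10 arrays without it. The deviations of same-numbered fish correlated at -0.11 to 0.13. Recrudescence replicates 1, 2, 3 and 5 correlated best with their own number, and replicate 4 with another. The numbers are not stated to pair fish and were not taken as pairs. The sample descriptions number the replicates differently from the titles. A replicate block by those numbers, added after seeing the data, gave 5696 calls, against 5950 on its own 10 arrays without it, with same-number correlations of -0.11 to 0.11.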
